A study of Homo sapiens with 12 samples.

Results

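Glucose enters a cell through the transporters of the SLC2A family and is broken down by the glycolytic enzymes, and many of these genes are also raised when oxygen is scarce. The 41 genes described here are a list of genes of this pathway whose rule uses no measured value, though earlier results of these data were known when the list was made. They comprise 5 glucose and lactate transporters, 18 glycolytic enzymes, 6 genes of pyruvate entry and gluconeogenesis, 2 hypoxia-inducible factors and 10 genes known as hypoxia-induced. A probe was found for 40 of the 41 genes among the 50599 probes and 20503 named genes of the array, and no probe was matched for ALDOA. These 40 genes had 52 probes, and 11 genes had more than 1 probe. Where several probes read a gene, the brightest over the 12 arrays stood for it, and 32 of the 40 genes were well above background on all 12 arrays.

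HA22T and PLC5 are established hepatocellular carcinoma (HCC) cell lines. Cells of each line, grown in medium with 10% serum, received either a non-targeting siRNA (siControl) or a pool of siRNAs against GALNT1 (siGALNT1), each at 10 nM. GALNT1 is an enzyme that starts mucin-type O-glycosylation. Total RNA was taken after 48 h and measured on 12 one-color arrays, 3 for each of the 4 groups. The labels give no separate cultures for the 3 replicates, so p-values measure the spread between these arrays, which may be technical. In RNA from a whole culture, fewer cells of a kind and less RNA per cell cannot be told apart.

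Levels are on the log2 scale with the 75th percentile of each array set to 0, so a level of 0 marks a probe at that percentile and a difference of 1 is a 2-fold difference. Levels of different genes come from different probes and were not set against each other. GALNT1 checked the labels. Its level was 1.32, 0.75 and 0.85 in HA22T with siControl against -3.15, -3.68 and -5.55 with siGALNT1, and 0.87, 0.37 and 0.61 against -1.93, -3.47 and -3.92 in PLC5. In both lines each siGALNT1 array lay below all siControl arrays. The change was -5.10 ± 0.61 (SE, n = 3) in HA22T and -3.72 ± 0.61 in PLC5, with adjusted p-values by limma of 0.0708 and 1, so the brighter probe of the targeted gene was itself not called. A second GALNT1 probe changed by -4.75 in HA22T (adjusted p by limma 0.0305) and by -3.03 in PLC5 (adjusted p by limma 1).

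The labelled cell type was compared with hepatocyte genes. All 14 hepatocyte markers were well above background on every PLC5 siControl array, and 8 of the 14 on every HA22T siControl array. Their summed level, the log2 of the sum over the 14 genes, was 7.77 to 8.22 in PLC5 and 2.79 to 3.10 in HA22T with siControl. Of the 14, 12 were called higher in PLC5, beside 11% of all probes. Markers not well above background on every HA22T array needed the PLC5 arrays to be counted, so their calls are limited support. The summed level of 5 mesenchymal markers was 5.87 to 6.71 in HA22T and 1.30 to 3.14 in PLC5 with siControl. That of 5 epithelial markers was 7.01 to 7.75 in HA22T and 6.23 to 7.49 in PLC5, and 0 of 4 counted were called. Of 4 blood cell markers 1 was called, CD14, higher in HA22T. Of 3 endothelial markers 1 was called, PECAM1, higher in PLC5. The part of these genes in the differences between the lines was not tested. Levels correlated between replicates at 0.968 to 0.988 over 22282 probes. A first slide held every HA22T array together with both arrays of PLC5 replicate 1, and a second slide held the 4 remaining PLC5 arrays.

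In glycolysis, hexokinases trap glucose in the cell, a chain of enzymes turns it into pyruvate, and lactate dehydrogenase turns pyruvate into lactate, which leaves through transporters of the SLC16A family. The liver can also run the pathway backwards and release glucose, which needs PCK1 or PCK2, FBP1 and G6PC1. HIF1A and EPAS1 encode the oxygen-sensitive subunits of the hypoxia-inducible factors, which bind short DNA elements with the core letters ACGTG or GCGTG when oxygen is low.

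These letters were searched on both strands of RefSeq promoters (build GRCh38.p14, 250 bases before to 50 bases after the start). A promoter was given for 36 of the 41 genes. SLC2A3, SLC16A1, PCK1, VEGFA and NDRG1 were not in the table. ACGTG or GCGTG was present in 24 of the 36 promoters (66.7%), against 48.4% of all 27305 promoters in the table. By role, a match was held by 13 of 18 glycolytic enzymes, 6 of 8 hypoxia-induced genes and 2 of 2 hypoxia-inducible factors. The same was so for 1 of 3 transporters and 2 of 5 genes of pyruvate entry and gluconeogenesis. The E-box CACGTG, which contains ACGTG on both strands and so counts as 2 matches to it, was in 6 of 36 promoters (16.7%) and in 7.43% of all. A match describes letters and not a bound site. The 250 bases before the start are shown for 5 genes chosen after their values were seen. SLC16A3, at chr17:82228185-82228434 (plus strand), and ENO2, at chr12:6914330-6914579 (plus strand), had large differences towards HA22T. G6PC1, at chr17:42900549-42900798 (plus strand), had a large difference towards PLC5, on HA22T siControl arrays of which 1 of 3 was well above background. LDHA, at chr11:18394313-18394562 (plus strand), differed little between the lines. BNIP3, at chr10:131981924-131982173 (minus strand), is a hypoxia-induced gene that differed between replicate pairs. The sequences run 5′ to 3′ on the gene's strand, with matches to ACGTG or GCGTG on either strand in capitals.
SLC16A3: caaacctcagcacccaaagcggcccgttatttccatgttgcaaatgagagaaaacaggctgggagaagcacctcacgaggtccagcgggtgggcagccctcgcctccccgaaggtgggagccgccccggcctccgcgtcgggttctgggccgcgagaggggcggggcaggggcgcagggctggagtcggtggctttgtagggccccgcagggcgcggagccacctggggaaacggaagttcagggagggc
ENO2: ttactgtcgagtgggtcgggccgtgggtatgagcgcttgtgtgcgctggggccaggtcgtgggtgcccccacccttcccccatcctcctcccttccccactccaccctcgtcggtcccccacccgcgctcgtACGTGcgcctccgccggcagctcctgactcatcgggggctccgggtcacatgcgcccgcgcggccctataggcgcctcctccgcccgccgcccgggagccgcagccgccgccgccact
G6PC1: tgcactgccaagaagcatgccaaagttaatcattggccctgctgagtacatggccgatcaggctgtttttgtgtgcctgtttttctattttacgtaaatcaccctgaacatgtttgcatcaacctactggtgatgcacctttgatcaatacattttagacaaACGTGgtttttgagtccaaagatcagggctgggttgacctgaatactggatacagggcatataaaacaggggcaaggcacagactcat
LDHA: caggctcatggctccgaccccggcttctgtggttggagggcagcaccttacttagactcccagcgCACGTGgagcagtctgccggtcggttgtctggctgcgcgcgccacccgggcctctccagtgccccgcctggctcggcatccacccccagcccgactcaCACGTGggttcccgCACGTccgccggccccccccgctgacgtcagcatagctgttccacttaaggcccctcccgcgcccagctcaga
BNIP3: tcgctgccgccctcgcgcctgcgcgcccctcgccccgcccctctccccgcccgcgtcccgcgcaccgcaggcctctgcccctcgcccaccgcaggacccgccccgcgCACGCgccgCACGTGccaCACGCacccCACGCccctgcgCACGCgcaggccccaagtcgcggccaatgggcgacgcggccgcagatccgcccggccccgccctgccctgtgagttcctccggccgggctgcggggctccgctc

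In these 250 bases SLC16A3 held no match, and ENO2 and G6PC1 held 1 match to ACGTG each. LDHA held 5 matches to ACGTG, 4 of them in its 2 E-boxes. BNIP3 held 2 matches to ACGTG in 1 E-box and 4 to GCGTG.

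The first comparison asked how the 2 lines differ in these genes. With siControl, 8 members were higher in HA22T and 7 were higher in PLC5, together 15 of 40 counted (37.5%), beside 22% of all 38011 counted probes, 11% in each direction. With siGALNT1, 7 were higher in HA22T and 7 in PLC5, together 14 of 39 (35.9%), beside 22.9% of 36741 counted probes, of which 9.79% were higher in HA22T and 13.1% in PLC5. A probe had to be well above background on 3 or more of the 6 compared arrays to be counted, and was called at an adjusted p below 0.05. The median difference (PLC5 minus HA22T) was -0.11 over the members and -0.04 over all counted probes with siControl, and 0.15 and -0.10 with siGALNT1. The median size of the difference, without its sign, was 0.71 for the members and 0.51 for all with siControl, and 0.93 and 0.57 with siGALNT1. The same genes were called with both siRNAs in 13 cases, 7 towards HA22T (SLC2A1, SLC16A3, HK1, HK2, ENO2, LDHB and HIF1A) and 6 towards PLC5 (SLC2A2, PDK1, PCK1, PCK2, G6PC1 and EPAS1). SLC2A2 with both siRNAs, and ENO2 with siGALNT1, passed the filter only through the line in which they were high, so they had to differ. ENO2, G6PC1 and ANKRD37 with siControl were well above background on all 3 arrays of the higher line and on 1 of 3 of the lower. G6PC1 with siGALNT1 was so on 2 of 3 HA22T arrays. These probes too needed the higher line to pass the filter, so their p-values are limited support. The 2 lines did not overlap for 19 of 37 members with 3 values in each group with siControl, beside 42.3% of probes, and for 19 of 37 with siGALNT1, beside 39.9%.

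**Figure D1:**
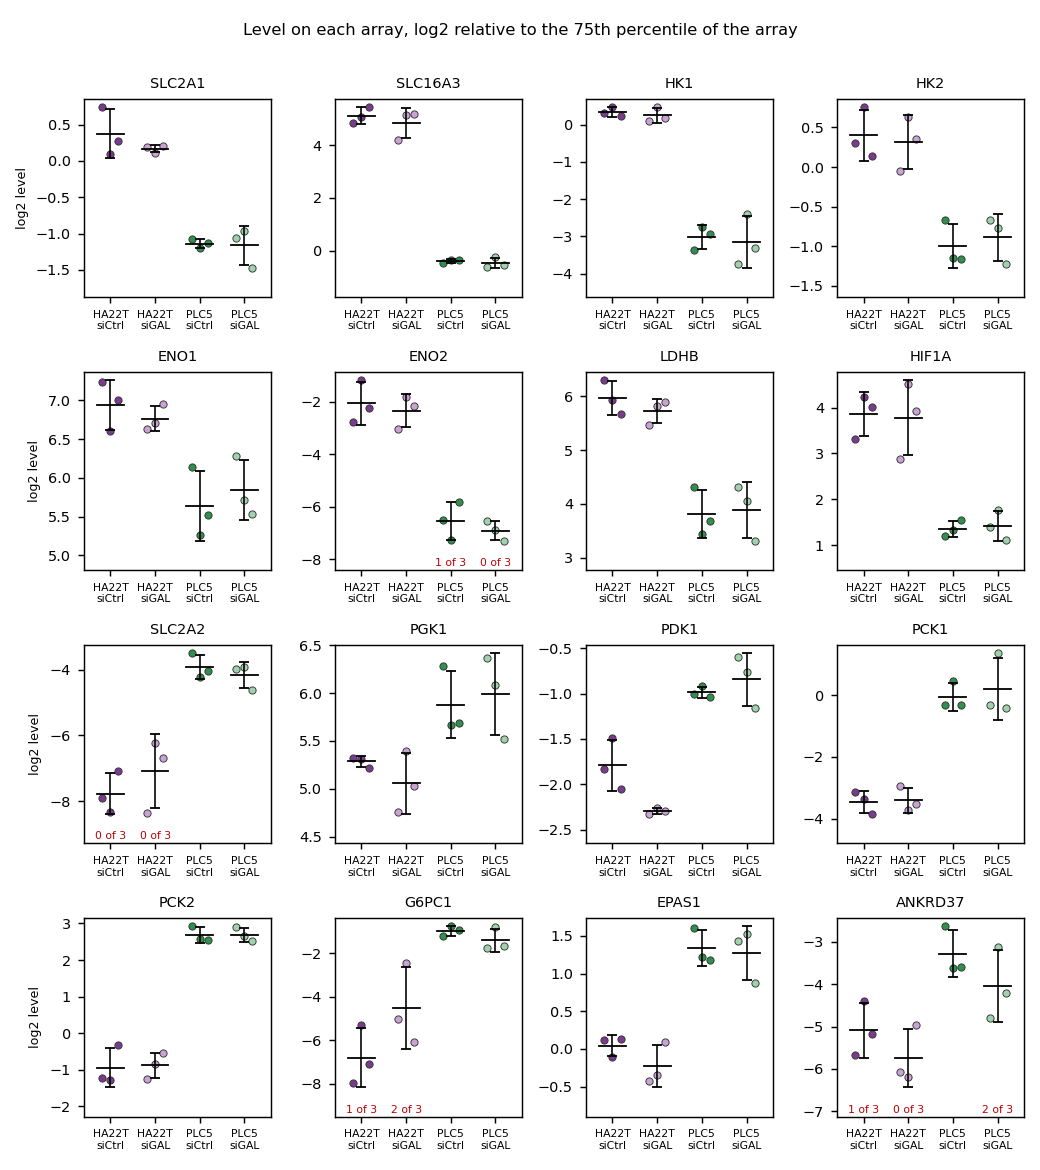
Level of the 16 genes called between the lines with either siRNA, in log2 relative to the 75th percentile of the array (vertical axis), in HA22T and PLC5 with siControl (siCtrl) or siGALNT1 (siGAL). Points are the 3 arrays, bars the mean and SD, and red text gives how many of the 3 arrays were well above background where it was fewer than 3. SLC16A3 lies between 4.17 and 5.45 in HA22T and below 0 on all PLC5 arrays, and the wide spread of G6PC1 in HA22T is visible beside its narrow spread in PLC5.

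Of the 5 glucose and lactate transporters, 2 were higher in HA22T and 1 was higher in PLC5 with each siRNA. Beside this, 11% of all probes were called in each direction with siControl. With siGALNT1, 9.79% of all probes were higher in HA22T and 13.1% in PLC5. SLC16A3 encodes MCT4, the lactate exporter of strongly glycolytic cells. Its level was 4.83, 5.06 and 5.45 in HA22T and -0.47, -0.36 and -0.36 in PLC5 with siControl. With siGALNT1 it was 4.17, 5.12 and 5.19 against -0.61, -0.25 and -0.53. The HA22T arrays were all far above the PLC5 arrays, and the difference was -5.51 ± 0.30 (SE, n = 3, adjusted p by limma 4.41e-07), or 45.6-fold, with siControl and -5.29 ± 0.30 (adjusted p by limma 6.04e-07), or 39.1-fold, with siGALNT1. SLC2A1 (GLUT1), the widespread glucose transporter, was 0.75, 0.10 and 0.27 in HA22T and -1.08, -1.20 and -1.13 in PLC5 with siControl. It was 2.85-fold higher in HA22T with siControl (adjusted p by limma 0.00096) and 2.52-fold higher with siGALNT1 (adjusted p by limma 0.00229).

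SLC2A2 (GLUT2), the transporter of hepatocytes and beta cells, lay the other way. It was well above background on all 6 PLC5 arrays, at -3.50, -4.21 and -4.05 with siControl and -3.97, -3.92 and -4.63 with siGALNT1. It was not well above background on any HA22T array, so only a bound can be given. The gene was at least 3.09-fold higher in PLC5 with siControl (adjusted p by limma 0.000255) and at least 1.74-fold higher with siGALNT1 (adjusted p by limma 0.00184). The bound sets the mean of the PLC5 arrays against the lowest signal that was well above background on the HA22T arrays. This probe passed the filter only through the PLC5 arrays, so it had to differ, and its p-values are no separate support.

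SLC2A3 (GLUT3), a high-affinity glucose transporter, was not called on its brighter probe. Its level was -1.02, 0.66 and 0.28 in HA22T and 1.32, 2.34 and 1.16 in PLC5 with siControl, and -1.35, 0.90 and 0.47 against 1.69, 3.32 and 1.20 with siGALNT1. The groups did not overlap with either siRNA, but the arrays within a line were spread by more than 1 unit. Adjusted p-values by limma were 0.129 and 0.0554. A dimmer probe of the gene gave differences of 1.53 (adjusted p by limma 0.0508) and 1.93 (adjusted p by limma 0.0177), the second of which passed. SLC16A1 (MCT1), the other lactate transporter, was not called with either siRNA and had no value on the replicate 3 pair of PLC5.

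**Figure D2:**
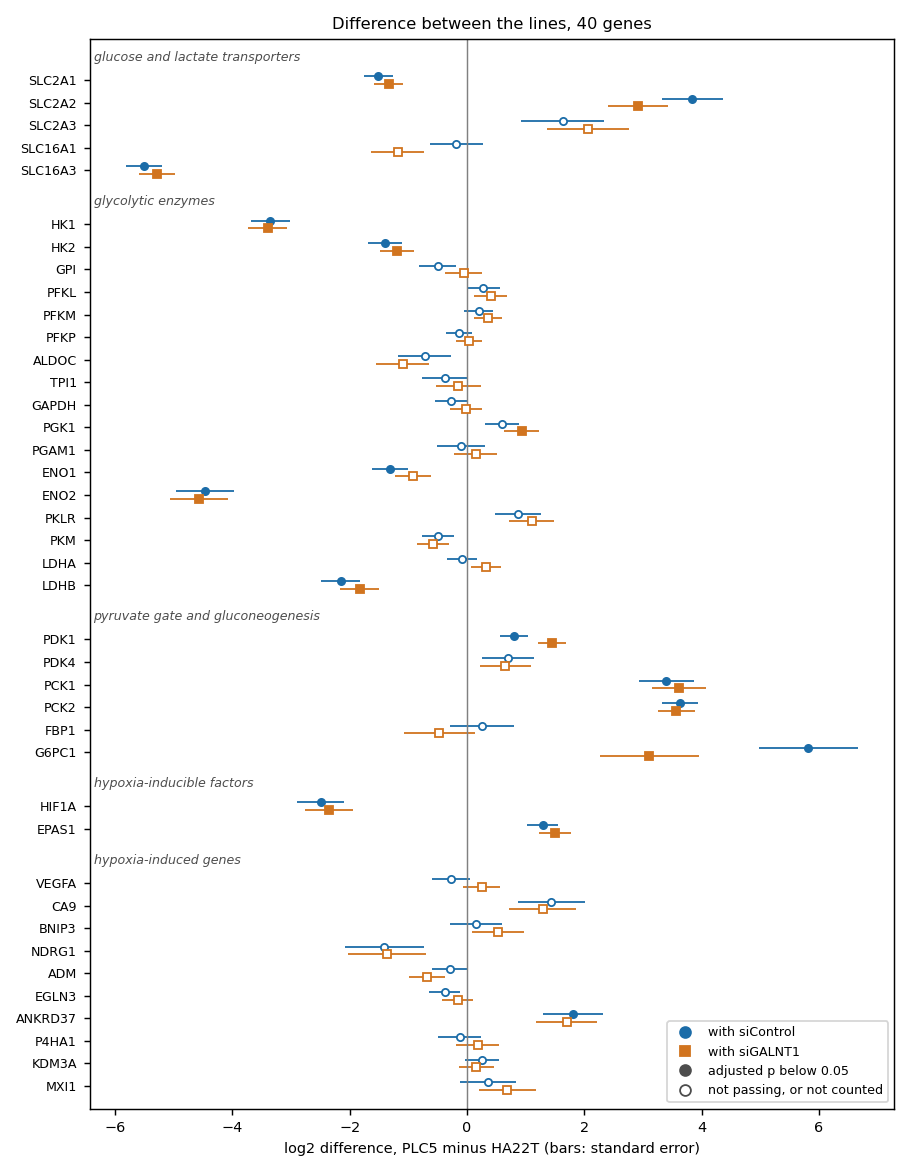
Difference between the lines in log2 (horizontal axis, PLC5 minus HA22T) for the 40 measured genes, sorted by role. Blue circles are with siControl, orange squares with siGALNT1, bars are standard errors, and filled symbols have an adjusted p below 0.05. The genes of pyruvate entry and gluconeogenesis that are filled all lie right of 0, and 4 of the 5 filled transporter and hexokinase genes lie left of it.

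Of the 17 measured glycolytic enzymes, 5 were higher in HA22T with siControl (29.4%, beside 11% of all probes) and 12 were not called. With siGALNT1, 4 were higher in HA22T, beside 9.79% of all probes, and 1 was higher in PLC5, beside 13.1%. HK1 and HK2, hexokinases of the first step, were among those higher in HA22T. HK1 was 0.31, 0.48 and 0.24 in HA22T and -3.36, -2.74 and -2.93 in PLC5 with siControl, a difference of -3.35 ± 0.34 (adjusted p by limma 2.84e-05). With siGALNT1 the difference was -3.40 ± 0.34 (adjusted p by limma 2.69e-05). HK1 was thus 10.2-fold higher in HA22T with siControl. HK2, the isoform typical of tumors, was 2.63-fold higher in HA22T with siControl (adjusted p by limma 0.00468) and 2.29-fold higher with siGALNT1 (adjusted p by limma 0.0114). A dimmer HK2 probe differed by -0.58 and -0.71 and was not called, and the mean over both probes gave adjusted p-values of 0.0709 and 0.0754.

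The enolases and lactate dehydrogenases showed which isoforms differed. ENO2, the enolase of neurons and of many tumors, was -2.78, -1.16 and -2.24 in HA22T with siControl and -3.04, -1.80 and -2.17 with siGALNT1, well above background on all 6 arrays. In PLC5 it was well above background on 1 of 3 siControl arrays and on none with siGALNT1. The difference with siControl was -4.47 ± 0.50 (adjusted p by limma 6.11e-05), its size resting on PLC5 arrays that were mostly not well above background. With siGALNT1 ENO2 was at least 9.78-fold higher in HA22T (adjusted p by limma 5.56e-05), where the probe passed the filter only through the HA22T arrays. ENO1, the general enolase, was 7.23, 6.60 and 7.00 in HA22T and 6.14, 5.26 and 5.52 in PLC5 with siControl, 2.47-fold higher in HA22T (adjusted p by limma 0.00997). With siGALNT1 the ENO1 difference was -0.92 (adjusted p by limma 0.0517) and was not called, although the groups did not overlap.

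LDHB, the lactate dehydrogenase subunit that is abundant in heart, was 6.31, 5.92 and 5.68 in HA22T and 4.31, 3.45 and 3.69 in PLC5 with siControl. It was 4.45-fold higher in HA22T with siControl (adjusted p by limma 0.000672) and 3.56-fold higher with siGALNT1 (adjusted p by limma 0.00211), and a second probe gave -1.97 and -1.61, both called. LDHA, the subunit that is raised in hypoxia, was 6.99, 6.62 and 6.55 in HA22T and 6.78, 6.42 and 6.70 in PLC5 with siControl. The LDHA groups overlapped, and neither this probe nor a dimmer one (0.68 and 0.79) was called. The unequal behaviour of the 2 subunits was not tested as a difference between genes.

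PGK1, which makes the first ATP of the pathway, was 5.33, 5.32 and 5.22 in HA22T and 6.28, 5.67 and 5.69 in PLC5 with siControl and was not called (adjusted p by limma 0.188). With siGALNT1 it was 1.91-fold higher in PLC5 (adjusted p by limma 0.0409). This call was lost without any 1 of 9 arrays, which were all 3 of HA22T siControl, replicates 1 and 3 of HA22T siGALNT1, replicates 2 and 3 of PLC5 siControl and replicates 1 and 2 of PLC5 siGALNT1, with adjusted p-values by limma of 0.0517 to 0.138 and differences of 0.75 to 0.93, against 0.93 with all arrays. The other 11 enzymes, GPI, PFKL, PFKM, PFKP, ALDOC, TPI1, GAPDH, PGAM1, PKLR, PKM and LDHA, were called with neither siRNA. Their differences ran from -0.72 (ALDOC) to 0.87 (PKLR) with siControl and from -1.10 (ALDOC) to 1.10 (PKLR) with siGALNT1. GAPDH, often used as a reference gene, differed by -0.27 and -0.01. The brighter and a dimmer probe differed in sign for PFKP and PGAM1 with siControl and for TPI1 with siGALNT1, without a call. Several of these genes have near-identical pseudogene copies, so a probe can also read RNA of a copy.

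Of the 6 genes of pyruvate entry and gluconeogenesis, 4 (66.7%) were higher in PLC5 with both siRNAs, beside 11% of all probes with siControl and 13.1% with siGALNT1. PCK2, the mitochondrial PEP carboxykinase, was 2.93, 2.57 and 2.56 in PLC5 and -1.22, -1.28 and -0.33 in HA22T with siControl. The difference was 3.63 ± 0.31 (adjusted p by limma 8.32e-06), or 12.4-fold, and 11.9-fold with siGALNT1. A dimmer PCK2 probe gave 0.97 and 1.02, also called but much smaller. PCK1, the cytosolic enzyme and a rate-setting step of gluconeogenesis, was -0.32, 0.46 and -0.31 in PLC5 and -3.15, -3.37 and -3.85 in HA22T with siControl. It was 10.6-fold higher in PLC5 with siControl (adjusted p by limma 0.000284) and 12.3-fold higher with siGALNT1 (adjusted p by limma 0.000191).

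G6PC1, the liver enzyme that releases free glucose, was higher in PLC5 with both siRNAs. In PLC5 it was -1.21, -0.77 and -0.96 with siControl and -1.76, -0.80 and -1.66 with siGALNT1. In HA22T it was -7.98, -5.32 and -7.11 with siControl, well above background on 1 of 3 arrays, and -5.01, -2.44 and -6.08 with siGALNT1, well above background on 2 of 3. The PLC5 arrays were close together and the HA22T arrays were far apart. The difference was 5.82 ± 0.84 (adjusted p by limma 0.000428) with siControl and 3.11 ± 0.84 (adjusted p by limma 0.021) with siGALNT1. The call with siGALNT1 was lost without HA22T siGALNT1 replicate 1 (adjusted p by limma 0.0635), without replicate 3 of that group (0.0776) and without PLC5 siGALNT1 replicate 2 (0.0812), with adjusted p-values by limma throughout, and with the slide as a block (2.81, adjusted p by limma 0.0925).

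PDK1, a pyruvate dehydrogenase kinase, was -1.01, -0.92 and -1.04 in PLC5 and -1.83, -1.49 and -2.05 in HA22T with siControl. With siGALNT1 it was -0.60, -0.77 and -1.16 against -2.33, -2.26 and -2.29. PDK1 was 1.74-fold higher in PLC5 with siControl (adjusted p by limma 0.0329) and 2.73-fold higher with siGALNT1 (adjusted p by limma 0.00111). The siControl call was lost without any 1 of the 6 arrays compared except HA22T siControl replicate 2, with adjusted p-values by limma of 0.0692 (without PLC5 replicate 1) to 0.127 (without HA22T replicate 3). PDK4 and FBP1 were not called. PDK4 had no value on the replicate 2 pair of HA22T, and FBP1 none on HA22T siGALNT1 replicate 2.

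The 2 hypoxia-inducible factors lay in opposite directions. HIF1A was 3.32, 4.23 and 4.01 in HA22T and 1.20, 1.34 and 1.55 in PLC5 with siControl, and 2.89, 4.51 and 3.93 against 1.40, 1.77 and 1.11 with siGALNT1. It was 5.63-fold higher in HA22T with siControl (adjusted p by limma 0.000909) and 5.11-fold higher with siGALNT1 (adjusted p by limma 0.00141). A second HIF1A probe gave -2.74 and -2.42, both called. EPAS1, which encodes HIF-2 alpha, was 1.61, 1.22 and 1.18 in PLC5 and 0.11, -0.11 and 0.13 in HA22T with siControl. It was 2.45-fold higher in PLC5 with siControl (adjusted p by limma 0.00457) and 2.83-fold higher with siGALNT1 (adjusted p by limma 0.00181). These are RNA levels, and the oxygen-dependent control of both factors acts on the protein.

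Of the 10 hypoxia-induced genes, 1 was called with siControl, beside 22% of all probes, and 0 of 9 counted with siGALNT1 by limma, beside 22.9%, where 2 had an unadjusted p below 0.05, beside 35.7% of probes. ANKRD37 was -2.63, -3.62 and -3.58 in PLC5 and -5.68, -4.40 and -5.18 in HA22T with siControl, a difference of 1.81 (adjusted p by limma 0.0266). It was well above background on 1 of 3 HA22T siControl arrays and on none with siGALNT1, and its call was lost without HA22T siControl replicate 1 (0.104), replicate 3 (0.073) or PLC5 siControl replicate 1 (0.0924), all adjusted p-values by limma. The other 9 genes, VEGFA, CA9, BNIP3, NDRG1, ADM, EGLN3, P4HA1, KDM3A and MXI1, ran from -1.41 (NDRG1) to 1.44 (CA9) with siControl and from -1.37 (NDRG1) to 1.29 (CA9) with siGALNT1. CA9, a cell-surface carbonic anhydrase, was -4.27, -3.25 and -4.46 in HA22T and -1.87, -2.28 and -3.52 in PLC5 with siControl, and the groups overlapped. For MXI1 the probes disagreed in sign with both siRNAs (0.35 and -0.71 with siControl), and for VEGFA with siControl, without a call.

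Within the slide that held both lines, the 3 HA22T arrays could be set against the single PLC5 array of the same siRNA. There the difference was -5.58 for SLC16A3, -3.70 for HK1, -1.66 for LDHB, -0.81 for ENO1, -2.65 for HIF1A, 3.14 for PCK1, 3.87 for PCK2 and 5.59 for G6PC1 with siControl, in the same direction as over all arrays. With the slide as a block ENO1 differed by -0.84 (adjusted p by limma 0.0729) with siControl and HK2 by -0.93 (adjusted p by limma 0.072) with siGALNT1, and both calls were lost. The block also ended the siControl calls of PDK1 (0.91, adjusted p by limma 0.0513) and ANKRD37 (1.76, adjusted p by limma 0.0984), while it left their differences near those over all arrays.

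The second comparison asked what the GALNT1 siRNA did to these genes in each line. No member was called in either line by limma. The brighter probe of the targeted gene, at -5.10 in HA22T and -3.72 in PLC5, was not called either. Smaller changes can thus be missed. In HA22T 0 of 38 counted members were called, beside 0.00275% of all 36327 counted probes (1 probe, that of GALNT1), and 1 member had an unadjusted p below 0.05, beside 2.99% of probes. In PLC5 0 of 39 were called, beside 0% of 38070 probes, and 0 members had an unadjusted p below 0.05, beside 1.33% of probes. The median change (siGALNT1 minus siControl) was -0.15 over the members and -0.06 over all counted probes in HA22T, and 0.01 and 0.01 in PLC5.

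The member with an unadjusted p below 0.05 was G6PC1 in HA22T, whose 3 pairs of same-numbered arrays went from -7.98 to -5.01, from -5.32 to -2.44 and from -7.11 to -6.08. It was higher with siGALNT1 in 3 of 3 pairs, with a mean change of 2.29 ± 0.84 (unadjusted p by limma 0.0199, adjusted p by limma 1) and overlapping groups. With the replicate number as a block the unadjusted p by limma was 0.000816 and the adjusted p by limma 0.853. In PLC5 G6PC1 changed by -0.43 ± 0.84, and the difference of the 2 changes was -2.72 ± 1.19 (unadjusted p by limma 0.0436, adjusted p by limma 0.988), which failed the correction. No member and no probe was called for a difference between the lines in the change (0 of 39100 probes, 0%, by limma, and 2.43% at an unadjusted p below 0.05).

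**Figure D3:**
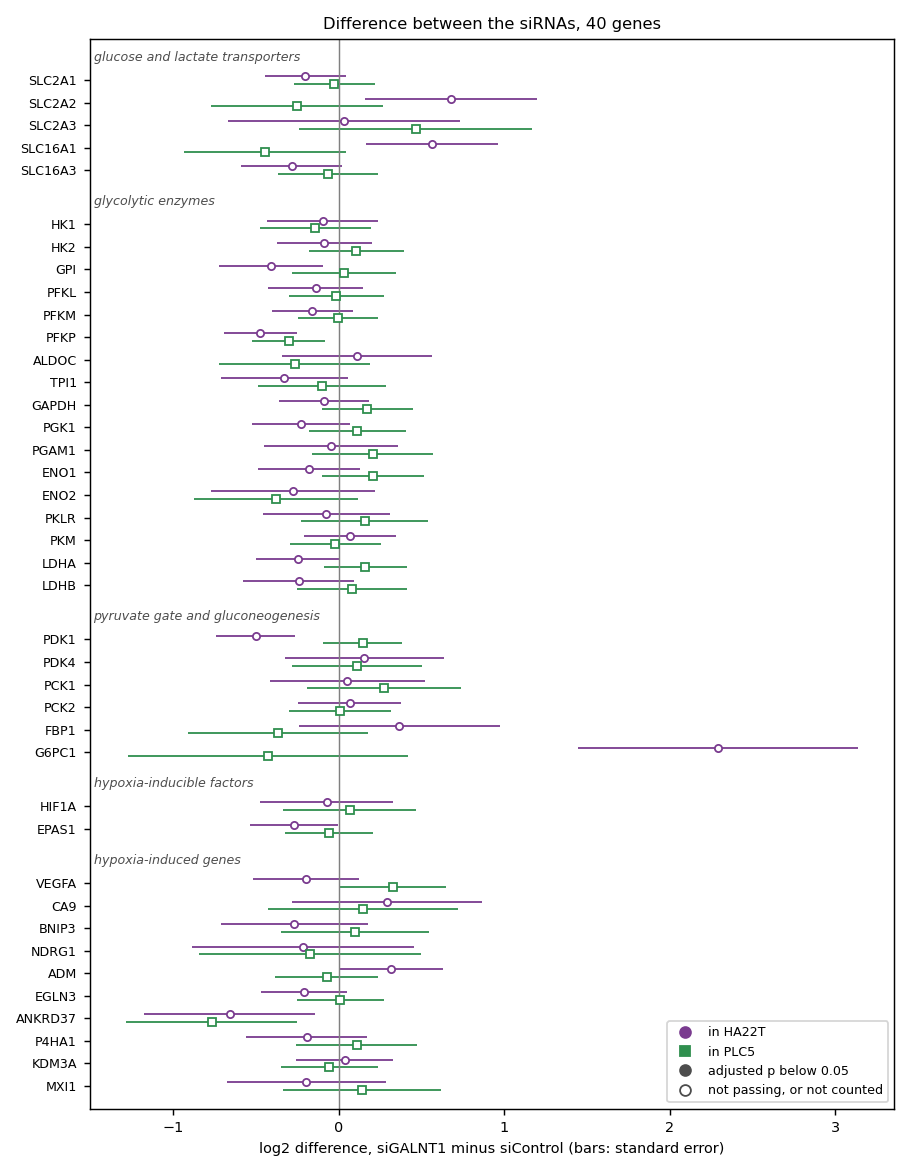
Change with siGALNT1 in log2 (horizontal axis, siGALNT1 minus siControl) for the 40 measured genes, sorted by role. Purple circles are HA22T, green squares PLC5, bars are standard errors, and open symbols did not pass an adjusted p below 0.05 or were not counted. All symbols are open, and G6PC1 in HA22T, at 2.29, is the farthest from 0. There it was well above background on 1 of 3 siControl and 2 of 3 siGALNT1 arrays.

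In HA22T the 2 siRNA groups did not overlap for 5 of 37 members with 3 values in each group (13.5%), beside 8.83% of 32440 probes. Of these, 4 were lower with siGALNT1, beside 4.6% of probes, and 1 was higher, beside 4.23%. PFKP, the platelet-type phosphofructokinase, was 3.88, 3.57 and 3.61 with siControl and 3.15, 3.23 and 3.26 with siGALNT1, a change of -0.47 ± 0.22 (adjusted p by limma 1). PDK1 changed by -0.50 ± 0.24, GPI, which makes fructose 6-phosphate, by -0.41 ± 0.31, and the triosephosphate isomerase TPI1 by -0.33 ± 0.38. SLC16A1 was higher, at -3.47 ± 0.32 (SD, n = 3) with siControl and -2.90 ± 0.09 with siGALNT1, a change of 0.56 ± 0.40 (SE). A dimmer PFKP probe changed by -0.31 and a dimmer TPI1 probe by -0.03. None of the 5 had an unadjusted p below 0.05 by limma. In PLC5 the groups did not overlap for 1 of 39 members (2.56%), beside 4.11% of 35405 probes. This was PFKP, at 3.69, 3.51 and 3.46 against 3.39, 3.37 and 3.00, a change of -0.30 ± 0.22 (adjusted p by limma 1). The dimmer PFKP probe changed by -0.07 in PLC5, with overlapping groups. On the brighter probe the change was -0.30 within the first slide, which held 1 PLC5 array per siRNA, and -0.31 within the second.

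Both arrays of 1 replicate number lay apart from the other 4 arrays of the line for some of these genes. This was noticed in the values and is given as a description without a test. In HA22T, both replicate 1 arrays lay below the other 4 arrays for 11 of 35 members with 6 values and a counted probe, beside 9.53% of probes. They were SLC2A3, SLC16A3, ALDOC, ENO2, PKLR, HIF1A, VEGFA, BNIP3, NDRG1, P4HA1 and MXI1. Both replicate 2 arrays lay above the other 4 for 13 of 35, beside 5.94% of probes, and 9 of these genes were also among the 11.

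NDRG1, a stress-response gene strongly raised in hypoxia, was 1.80 with siControl and 1.45 with siGALNT1 in the replicate 1 pair of HA22T, 3.91 and 3.81 in the replicate 2 pair, and 3.22 and 3.02 in the replicate 3 pair. The pair means spanned 2.23. BNIP3, a mitophagy receptor whose promoter is among those shown, was 1.51 and 0.91, then 2.63 and 2.62, then 1.94 and 1.74 in the 3 pairs. MXI1, an antagonist of MYC, was 0.94 and 0.19, then 1.92 and 2.09, then 1.91 and 1.89. The pair means spanned 1.96 for SLC2A3 and 1.27 for HIF1A.

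Over the 10 hypoxia-induced genes in HA22T the median span of the 3 pair means was 0.94, beside 0.52 over 37 members and 0.54 over all counted probes. The 16 glycolytic enzymes with 6 values had a median span of 0.26. The median deviation of the hypoxia-induced genes from their line mean was -0.41 and -0.62 on the 2 replicate 1 arrays of HA22T, against 0.10 and 0.12 over all counted probes.

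**Figure D4:**
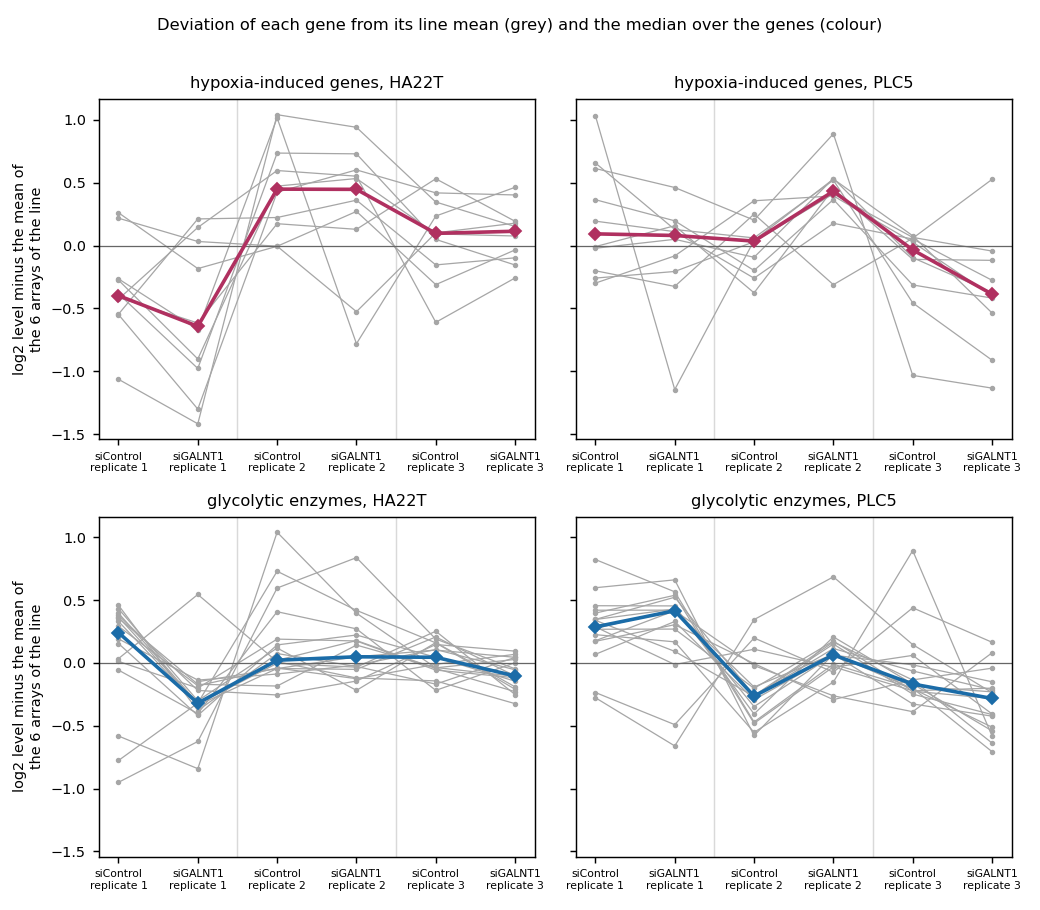
Level of each gene minus its mean over the 6 arrays of the line, in log2 (vertical axis), on each array sorted by replicate number (horizontal axis), for hypoxia-induced genes (top) and glycolytic enzymes (bottom) in HA22T (left) and PLC5 (right). Grey lines are genes and coloured diamonds the median over the genes. The median of the hypoxia-induced genes is lowest on both replicate 1 arrays of HA22T, and that of the glycolytic enzymes is highest on both replicate 1 arrays of PLC5. Single genes can lie the other way.

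In PLC5 both replicate 1 arrays lay above the other 4 for 12 of 16 glycolytic enzymes, beside 21.9% of probes. These were HK2, GPI, PFKL, TPI1, GAPDH, PGK1, PGAM1, ENO1, PKLR, PKM, LDHA and LDHB. For HK1 and ALDOC both replicate 1 arrays lay below the other 4. TPI1 was 5.52 and 5.26 in this pair, 4.23 and 4.69 in the replicate 2 pair, and 4.50 and 3.99 in the replicate 3 pair. This is the pair that shared the slide with HA22T, so slide and replicate cannot be told apart here. Both replicate 3 arrays lay below the other 4 for 4 of 10 hypoxia-induced genes, CA9, BNIP3, NDRG1 and MXI1, beside 5.6% of probes. SLC2A3 was highest on the replicate 2 arrays, at 2.34 and 3.32.

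The line differences were computed again without the replicate 1 pair of HA22T. All 8 members higher in HA22T with siControl remained, and NDRG1 was added. With siGALNT1 all 7 remained, and ALDOC and NDRG1 were added. Towards PLC5 5 of 7 remained with each siRNA, and the calls of PDK1 and ANKRD37 with siControl and of PGK1 and G6PC1 with siGALNT1 were lost. Over all probes, 7042 of 37622 counted were called with siControl, against 8368 of 38011 with all arrays. With siGALNT1 it was 7743 of 36512, against 8407 of 36741. Without the replicate 1 pair of PLC5 the same 4 calls were lost, the calls towards HA22T remained, and ENO1 with siGALNT1 was added. Over all probes, 7480 of 37914 were then called with siControl and 6814 of 36700 with siGALNT1. No member was called for the siRNA in either line without these pairs.

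Further genes of the same pathways were read from lists. Of 37 counted other genes of glycolysis and pyruvate use, 7 were higher in PLC5 and 4 in HA22T with siControl (29.7% of those counted, beside 22% of all probes), with a median difference of 0.09. The largest towards PLC5 were PDK3, a further pyruvate dehydrogenase kinase, at 2.87, LDHD, a D-lactate dehydrogenase, at 2.86, ENO3, the muscle enolase, at 2.49 and DLAT, a subunit of pyruvate dehydrogenase, at 2.22. Towards HA22T they were SLC16A7 (MCT2), at -3.48 with 1 of 3 PLC5 arrays well above background, PDP1, the phosphatase that opposes the PDK kinases, at -2.57, G6PC3 at -1.01 and PDK2 at -0.74. The muscle enolase thus lay towards PLC5, and ENO1 and ENO2 towards HA22T.

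Of 43 counted other hypoxia genes, 10 were higher in PLC5 and 11 in HA22T with siControl (48.8%, beside 22% of all probes), and 11 and 12 of 42 with siGALNT1 (54.8%, beside 22.9%). IGFBP1, a secreted liver protein that is raised in hypoxia and fasting, was not well above background on any HA22T siControl array and was at least 4675-fold higher in PLC5. Its probe passed the filter only through the PLC5 arrays, so it had to differ, and its call is no separate support. ANGPTL4, a fasting- and hypoxia-induced secreted protein, differed by 4.93 with 2 of 3 HA22T arrays well above background, RNASE4 by 3.60 and the mitochondrial adenylate kinase AK4 by 3.17. Towards HA22T were PLOD2, a collagen lysyl hydroxylase, at -3.39, the repressor BHLHE41 at -3.13 with 2 of 3 PLC5 arrays well above background, ARNT2, a partner of the hypoxia-inducible factors, at -3.08 and TMEM45A at -2.33. Genes that are raised in hypoxia thus lay on both sides. With siGALNT1 against siControl, 0 of 37 other glycolysis genes and 0 of 41 other hypoxia genes were called in HA22T, and 0 of 39 and 0 of 43 in PLC5, by limma. At an unadjusted p below 0.05 the counts were 0 and 0 in HA22T and 1 and 0 in PLC5. PFKFB2, which makes a regulator of phosphofructokinase, changed by 0.17 in HA22T on its brighter probe. A dimmer probe of PFKFB2 was chosen after its values were seen. In HA22T it went from -5.90, -5.45 and -6.16 with siControl to -1.87 and -3.02 with siGALNT1. It had no value on siGALNT1 replicate 1, and the adjusted p by limma was 0.0862. It was well above background on 1 of 3 siControl arrays and on the 2 siGALNT1 arrays with a value. The probe thus needed the siGALNT1 arrays to pass the filter, so its p-value is limited support. In PLC5 this probe was not counted.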

How the data were processed

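HA22T and PLC5 cells with siControl or siGALNT1 were measured on 12 one-color Agilent arrays of 58717 spots. The authors deposited scanner output from Feature Extraction 10.5.1.1, whose intensity values are background-subtracted (processed signal) or raw (median signal and local background). A deposited table of log2 values, scaled to the 75th percentile of each array by the authors, served as an alternative. Of the spots, 36679 to 48873 were well above background, and the 12 arrays limit the precision.

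Control spots and the 489 to 3633 non-uniform spots of an array were left out, log2 of the processed signal minus the 75th percentile of the array was taken, and spots of a probe were averaged. Symbols came from a RefSeq table (GRCh38.p14) for 28174 of 50599 probes. A gene was represented by its brightest probe with a value in every group. Group means of all 12 arrays were fitted in limma 3.58.1 (R 4.3.3, lmFit and eBayes), with Benjamini-Hochberg adjustment over the counted probes. The 5 comparisons were the lines with each siRNA, the siRNAs in each line, and the interaction. The code was tested on simulated data. With 3 against 3 arrays an exact two-sided permutation test cannot go below 0.1, so none was used.

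Members and lists were chosen with earlier results of these data known. Folds with errors were to be printed for members called between the lines, and for the siRNA for members with an unadjusted p below 0.05 or groups that did not overlap. Of the 2 further lists, up to 4 called genes in each direction were named. A result on 1 gene of these lists is not reported here.

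The deviations of same-numbered arrays from their group means correlated at 0.526, 0.264 and 0.338 between the siRNAs in HA22T, so the numbers were taken as pairs there from the values alone. In PLC5 they correlated at 0.58, 5.8e-05 and 0.182, and between the lines at -0.187 to 0.262. The alternatives were normexp, quantile and median scaling, the deposited log2 table, other filters, slide and replicate blocks, a fit of only the arrays compared, a trend, the methods' t-test, probe means and leaving out arrays.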

Additional observations from a re-analysis of the deposited data

How the results depend on the processing

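No called line difference of a member changed sign under any of the alternatives run, and no member was called for the siRNA in either line under any of them. Of 999 values of single genes under an alternative, 944 stayed on their side of the threshold and 55 lost the call. The arrays number 3 per group, dim probes such as SLC2A2, ENO2, G6PC1 and ANKRD37 were measured well in 1 line, and these 4 were not tested where a probe had to be well above background on all 6 arrays. With that filter 4 members instead of 7 were higher in PLC5 with siControl, and 5233 probes differed between the lines with siGALNT1, against 8407. The latter count was 5288 in a fit of only the 6 arrays compared. The median line difference of the members with siControl, -0.11, was 0.0687 with quantile normalization and 0.0698 with the slide as a block. Median scaling moved the median of all counted probes in that comparison from -0.04 to -0.15. The cause of these shifts was not tested.

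The methods' t-test was run on the same values, at a fold over 1.5 and an unadjusted p below 0.05. Between the lines it gave 10963 probes (28.8%) and 16 of 40 members with siControl, and 9905 (27.0%) and 15 of 39 with siGALNT1. For the siRNA it gave 753 probes (2.07%) and 0 of 38 members in HA22T, and 325 (0.854%) and 0 of 39 in PLC5. After Benjamini-Hochberg adjustment 6330, 3967, 1 and 0 probes were left, and 4 members were higher in PLC5 with siGALNT1. At the same fold and unadjusted p limma gave 12322, 12864, 1043 and 492 probes (32.4%, 35.0%, 2.87% and 1.29%), with G6PC1 the 1 member for the siRNA in HA22T.

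In HA22T, where the numbers were taken as pairs, the replicate block left 0 probes called for the siRNA, against 1, and no member. Between the lines it ended the calls of PDK1 (0.80, adjusted p by limma 0.0662) and ANKRD37 (1.81, adjusted p by limma 0.0748) with siControl and of PGK1 (0.93, adjusted p by limma 0.0794) with siGALNT1, where the samples shared only a number, and no other member that was called lost its call. The count for the siRNA in HA22T was 3 probes with normexp and 3 with a trend, 0 with the stricter filter, the slide block, only the arrays compared or the PLC5 replicate 1 pair left out, and 0 to 2 when each array was left out in turn. In PLC5 it was 2 with normexp, against 0. Leaving out a replicate 1 pair was chosen after seeing the data.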
